A study of Homo sapiens with 30 samples.

Results

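The genes described here are 32 genes of cholesterol synthesis, fatty acid synthesis and the liver X receptors (LXR) that were followed in human lung epithelial and endothelial cells after exposure to soot and to secondary organic aerosol (SOA). The members were named by gene symbol and kept in a cell line when 3 or more of its libraries held 30 or more counts. Of the 18460 genes in the count tables, 11775 passed that filter in A549 cells, all 32 members among them, and 10709 passed in EA.hy926 cells, 31 members among them. The member lost in EA.hy926 cells was ABCG1, which had a count of 0 in all 15 libraries of that line.

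Poly-A RNA was sequenced from a coculture in which A549 cells, a lung carcinoma epithelial line, lay on the apical side of an insert and EA.hy926 cells lay on the basolateral side. EA.hy926 is an endothelial hybrid line made by fusing an umbilical vein endothelial cell with an A549 derivative, so both lines share part of their origin, and neither is a primary lung cell. Each coculture spent 4 h at the air-liquid interface in clean air (CA, 4 libraries per line), fresh soot particles (SP, 3 libraries), β-pinene SOA on soot (SOAβPIN-SP, called PIN here, 4 libraries) or naphthalene SOA on soot (SOANAP-SP, called NAP here, 4 libraries). The labels and the study give the aerosol doses in different units, per volume of liquid and per volume of air, so no dose is stated here. By the study's estimate for the dilution used, the mass deposited on the cells was lowest for SP, higher for PIN and highest for NAP. Deposited mass and aerosol type therefore cannot be told apart between aerosols. During the exposure all groups were kept in the same serum-free DMEM/F12 medium with HEPES and antibiotics, and only the A549 side faced the aerosol. Before it the cells had been cultured in medium with serum, so the clean-air levels are also those of cells taken out of serum.

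The library labels name an experiment for each coculture. The 4 CA cocultures came from experiments 24, 38, 42 and 53, the SP cocultures from 52, 53 and 56, the PIN cocultures from 34, 35, 37 and 38, and the NAP cocultures from 42, 44, 46 and 49. No experiment held more than 1 aerosol, so the aerosol and the experiment cannot be told apart between aerosols, and the 3 aerosols were compared with the same CA libraries. Fewer cells expressing a gene and less RNA per cell cannot be told apart in these bulk samples.

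Cells make cholesterol from acetyl-CoA through mevalonate, squalene and lanosterol, and the enzymes of these steps are encoded by genes that the transcription factor SREBP-2 drives when sterols in the endoplasmic reticulum run low. SREBP precursors are escorted to the Golgi by SCAP and held back by INSIG proteins, and SREBP-1 mainly drives the enzymes of fatty acid synthesis. When oxysterols accumulate, the liver X receptors raise sterol exporters such as ABCA1 and ABCG1, the ubiquitin ligase MYLIP and SREBF1 itself. In the alveolus, epithelial cells use these pathways to supply the lipids of surfactant.

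The promoters of 4 members are shown because they stand for the patterns described further on: INSIG1 and MVK rose in A549 cells, MSMO1 was lower in EA.hy926 cells, and SREBF2 encodes SREBP-2. Each runs from 250 bases before to 50 bases after the annotated start on RefSeq's GRCh38.p14, on the plus strand. The windows lie at chr7:155297628-155297927 for INSIG1, chr12:109573544-109573843 for MVK, chr4:165327419-165327718 for MSMO1 and chr22:41832855-41833154 for SREBF2. Capitals mark the letters TCACNCCAC, a form of the sterol regulatory element, and CCAAT, the box bound by NF-Y, on either strand, so that CCAAT on the other strand reads ATTGG.
INSIG1: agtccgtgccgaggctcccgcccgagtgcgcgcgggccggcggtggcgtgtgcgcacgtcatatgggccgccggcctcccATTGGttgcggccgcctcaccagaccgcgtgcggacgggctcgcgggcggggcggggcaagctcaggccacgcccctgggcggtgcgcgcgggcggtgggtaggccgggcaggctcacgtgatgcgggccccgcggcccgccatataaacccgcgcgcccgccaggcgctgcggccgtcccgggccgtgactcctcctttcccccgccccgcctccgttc
MVK: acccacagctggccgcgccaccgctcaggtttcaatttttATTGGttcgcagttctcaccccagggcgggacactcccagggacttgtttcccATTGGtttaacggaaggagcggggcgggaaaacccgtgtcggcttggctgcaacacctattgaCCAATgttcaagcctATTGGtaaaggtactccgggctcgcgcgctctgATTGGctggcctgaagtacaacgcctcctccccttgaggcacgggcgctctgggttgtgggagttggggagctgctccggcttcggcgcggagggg
MSMO1: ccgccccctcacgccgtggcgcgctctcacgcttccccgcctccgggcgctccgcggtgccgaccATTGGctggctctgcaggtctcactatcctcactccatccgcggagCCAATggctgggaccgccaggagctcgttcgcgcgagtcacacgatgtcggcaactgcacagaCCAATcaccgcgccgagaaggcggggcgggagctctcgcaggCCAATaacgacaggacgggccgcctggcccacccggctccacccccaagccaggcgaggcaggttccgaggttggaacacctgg
SREBF2: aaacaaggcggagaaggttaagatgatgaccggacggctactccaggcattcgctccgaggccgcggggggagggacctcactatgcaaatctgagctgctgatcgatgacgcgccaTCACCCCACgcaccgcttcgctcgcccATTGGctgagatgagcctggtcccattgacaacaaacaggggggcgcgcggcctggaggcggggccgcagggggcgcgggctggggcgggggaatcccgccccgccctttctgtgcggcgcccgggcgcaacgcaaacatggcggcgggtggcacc

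The MVK window held CCAAT 5 times, the MSMO1 window 4 times, and the INSIG1 and SREBF2 windows 1 time each. RefSeq promoters were matched for 27 of the 32 members. CCAAT was found in 18 of the 27 (66.7%), against 34.6% of all 35116 promoters of the same length, and the GC box GGGCGG in 25 of the 27 (92.6%), against 45% of all promoters. TCACNCCAC stood in 1 of the 27, the SREBF2 promoter (3.7%, against 1.13% of all), and the E-box CACGTG, which reads the same on both strands, in 5 of the 27 (18.5%, against 7.26%). Each motif was counted separately on both strands, matches of different motifs may share letters at their ends, and a match describes the letters in the window, not a site in use. The promoters of the background were not chosen by expression in these lines, whereas the members had passed a count filter. The shares are therefore not a like comparison.

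Library totals ran from 7317041 to 15012539 counts in A549 cells and from 10003314 to 16610686 in EA.hy926 cells. Epithelial markers summed to between 880 and 2930 CPM (counts scaled to a common library total) in A549 libraries. In EA.hy926 libraries they summed to at most 6.58 CPM. The 11 endothelial markers summed to 2240 to 2810 CPM in EA.hy926 libraries against 85 to 139 CPM in A549 libraries. Most of that A549 sum came from EGFL7, at 77.5 to 133 CPM. In A549 cells the epithelial sum was higher after NAP (2100 to 2930 CPM) than in CA (880 to 1920 CPM), and its part in the results on A549 cells was not tested. The A549 library of CA replicate 2 held 122 counts of 9 endothelial markers that are low in A549 cells, against 6 to 29 in the other A549 libraries. Leaving that library out left the number of members called against CA in A549 cells at 1 for SP, 4 for PIN and 5 for NAP.

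In clean air the sterol genes were mostly at higher levels in A549 than in EA.hy926 cells. HMGCS1, the cytosolic HMG-CoA synthase at the entry to the mevalonate pathway, had a mean level of 389 CPM in A549 and 40.4 CPM in EA.hy926 cells. The mean CA levels of SREBF1, the gene of SREBP-1, were 232 and 44.1 CPM, those of SCD, the desaturase that makes oleate, 1640 and 300 CPM, and those of TM7SF2, a sterol reductase, 45.1 and 3.7 CPM. FASN, the fatty acid synthase, stood at similar mean levels of 333 and 290 CPM, and STARD4, a cytosolic cholesterol carrier, was lower in A549 cells (25.3 CPM) than in EA.hy926 cells (50.9 CPM). These levels are a description with no test, and each compares a gene with itself between the lines.

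In A549 cells, the exposed side, the called members moved up against clean air after every aerosol. A gene is called here when the edgeR quasi-likelihood test gave an adjusted p of at most 0.05 and the log2 fold change was at least 0.5 in size. After SP 1 of 32 members was called higher, where 2.02% of all tested genes were called higher. After PIN 4 members were called higher against a background of 4.31%, and after NAP 5 members against 6.92%. No member was called lower with any aerosol, against 3.97%, 8.93% and 11.3% of all genes, and the members with an unadjusted p under 0.05 numbered 12, 11 and 16. The share of all genes at that unadjusted p was not counted, here or for the later counts of this kind. Such counts therefore have no background beside them and are not read as particular to the members. The share of all genes called in either direction was 5.99%, 13.2% and 18.2%. FASN was called with all 3 aerosols, SREBF1, INSIG1 and ABCG1 with PIN and NAP, and MVK with NAP, while the other 27 members were called with none.

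Most changes in A549 cells were smaller than the fold change minimum. With the adjusted p alone, 3 of 32 members passed after SP, 7 after PIN and 10 after NAP, all of them higher. Of all genes 10.2%, 25% and 35.7% passed that rule in either direction, so members passed no more often. Shares of all genes by direction were not counted for that rule, so the direction is not read as particular to the members. The log2 fold change was above 0 for 29 of 32 members after SP, 25 after PIN and 30 after NAP. The members' median log2 fold change was 0.24, 0.17 and 0.24, beside 0, 0.01 and 0 over all genes tested.

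**Figure D1:**
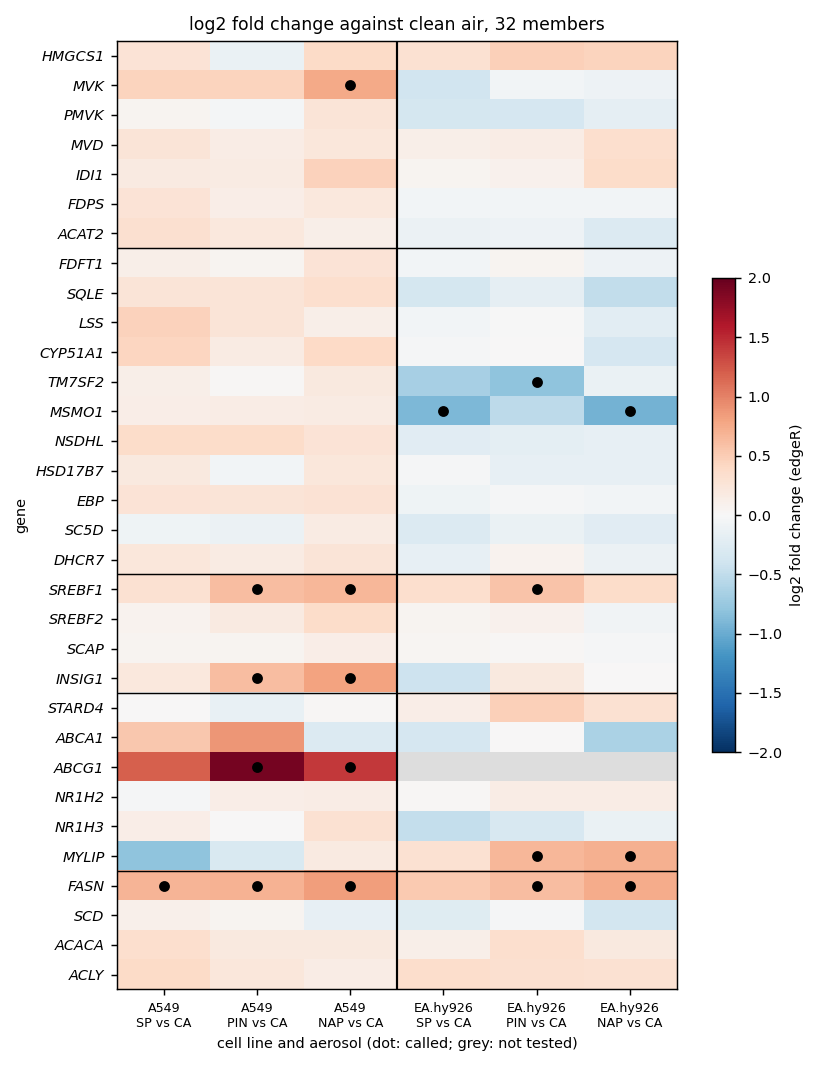
Log2 fold change of each member against clean air (colour scale) for SP, PIN and NAP in A549 and EA.hy926 cells, with members grouped by role and a mark on the called ones. The A549 columns are mostly above 0 and hold all calls of INSIG1, MVK and ABCG1. The EA.hy926 columns are below 0 for all 11 squalene and sterol steps after SP and NAP.

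Of the SREBP control genes, INSIG1 and SREBF1 rose in A549 cells. INSIG1 (chr7:155297776-155310235, plus strand, GRCh38) encodes the endoplasmic reticulum protein that retains SCAP and the SREBP precursors, and is itself a target of SREBP. Its level in the 4 CA libraries was 54.6, 51.3, 57 and 53.9 CPM after TMM scaling, the scale of all per-library levels given from here on. The level was 56, 72.2 and 59.7 CPM after SP, 87.5, 85.8, 88.2 and 71.7 CPM after PIN and 87.4, 91.9, 97.6 and 99.8 CPM after NAP. Every PIN and NAP library lay above every CA library, PIN replicate 4 was apart from the other PIN libraries on the low side, and the SP libraries reached into the CA range. Its log2 fold change was 0.62 after PIN (SE 0.09, edgeR adjusted p = 5.34e-05) and 0.80 after NAP (SE 0.09, adjusted p = 3.03e-06), and 0.21 after SP (adjusted p = 0.203).

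SREBF1 (chr17:17810399-17837002, minus strand) stood at 206, 234, 285 and 203 CPM in CA and at 293, 284 and 280 CPM after SP. It stood at 343, 263, 333 and 486 CPM after PIN and at 373, 349, 360 and 388 CPM after NAP. The NAP libraries were all above CA, whereas PIN replicate 2 lay below the highest CA library and PIN replicate 4 was the highest library of all. On the log2 scale SREBF1 rose by 0.62 after PIN (SE 0.14, edgeR adjusted p = 0.00388) and 0.66 after NAP (SE 0.14, adjusted p = 0.00179). Without PIN replicate 4 the PIN value was 0.43 (SE 0.11, adjusted p = 0.00594), which is under the fold change minimum. Exons of SREBF1 overlap RAI1 on the other strand, and the sources used here do not say whether strand was used in counting.

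The other 2 SREBP control genes moved less in A549 cells. SREBF2 had a log2 fold change of 0.37 after NAP, a 1.3-fold level that passed the adjusted p (0.00158) but not the fold change minimum. SCAP lay between 0.05 and 0.14 with the 3 aerosols and passed neither.

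**Figure D2:**
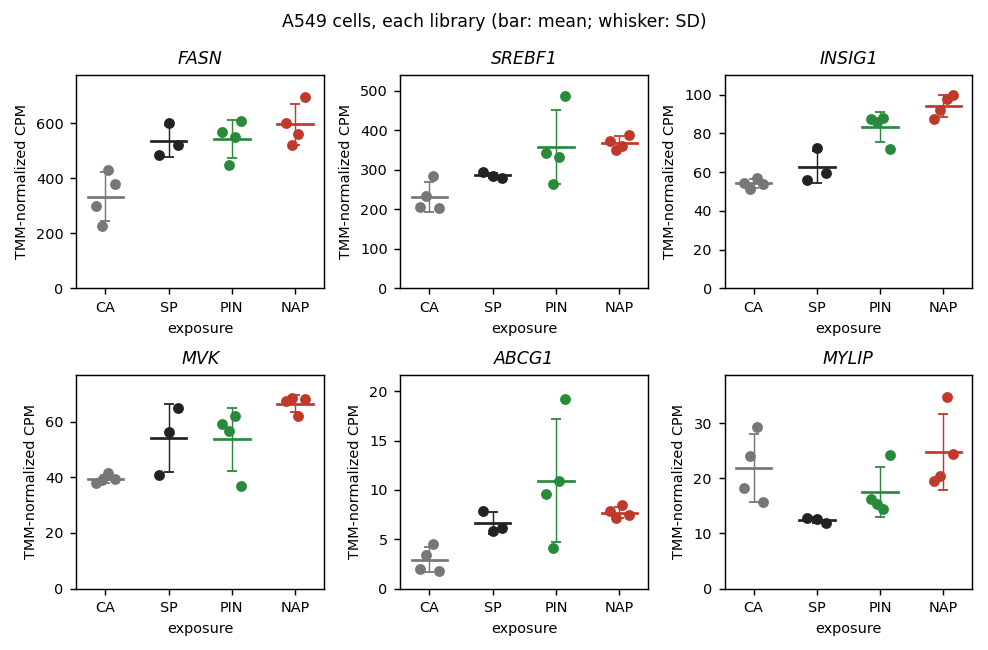
TMM-scaled CPM of FASN, SREBF1, INSIG1, MVK, ABCG1 and MYLIP in each A549 library (points) by exposure, with the group mean (bar) and SD (whisker), each axis from 0. All FASN points after exposure lie above the CA points, and the 4 NAP points of MVK (61.9 to 68.5 CPM) lie above the CA points (38 to 41.5 CPM).

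Among the 7 mevalonate steps 1 member was called in A549 cells, MVK after NAP. MVK (chr12:109573255-109598125, plus strand) encodes mevalonate kinase. Its CA levels were 38, 39, 41.5 and 39.5 CPM and its SP levels 41, 56.4 and 65 CPM. They were 59.1, 56.6, 62.1 and 36.9 CPM after PIN and 67.4, 68.5, 61.9 and 68 CPM after NAP. The NAP libraries did not overlap CA, and PIN replicate 4 lay below every CA library while the other PIN libraries lay above. MVK rose by 0.75 on the log2 scale after NAP (SE 0.14, edgeR adjusted p = 0.000497) and its value was 0.44 after PIN (SE 0.14, adjusted p = 0.0273). Without PIN replicate 4 the PIN value was 0.59 (SE 0.11, adjusted p = 0.000863), past both thresholds. An exon of MVK overlaps MMAB on the other strand.

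HMGCS1 (chr5:43287470-43313512, minus strand) was at 345, 316, 486 and 411 CPM in CA and at 403, 547 and 458 CPM after SP. After PIN it was at 349, 394, 278 and 388 CPM, and after NAP at 550, 523, 411 and 538 CPM. The CA range was wide and all aerosol groups overlapped it. After NAP the log2 fold change was 0.38 (adjusted p = 0.0467), after SP 0.27 (adjusted p = 0.298) and after PIN -0.14 (adjusted p = 0.496). IDI1, which isomerizes isopentenyl diphosphate, had a log2 fold change of 0.46 after NAP (adjusted p = 0.00354), under the fold change minimum. The group's log2 fold changes ran from 0.06 to 0.45 after SP, from -0.14 to 0.44 after PIN and from 0.12 to 0.75 after NAP.

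None of the 11 squalene and sterol steps was called against CA in A549 cells, although their log2 fold changes were above 0 for 10 of them after SP, 9 after PIN and all 11 after NAP. The group medians were 0.22, 0.17 and 0.25. SQLE encodes squalene epoxidase, a controlling step of the sterol branch, and had levels of 213, 218, 176 and 199 CPM in CA, 235, 246 and 243 CPM after SP, 261, 271, 237 and 200 CPM after PIN and 247, 274, 240 and 262 CPM after NAP. All SP and NAP libraries lay above CA, with a log2 fold change of 0.34 after NAP (adjusted p = 0.00653) and 0.26 after both SP (adjusted p = 0.101) and PIN (adjusted p = 0.0388). NSDHL and MSMO1 both act in the removal of methyl groups from the sterol ring. NSDHL had levels of 66.8, 59.3, 53.2 and 61.5 CPM in CA, 72.1, 72.5 and 88.5 CPM after SP, 82.6, 79.6, 87.9 and 61.1 CPM after PIN and 69.9, 84.9, 71.3 and 67.2 CPM after NAP.

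For NSDHL only PIN replicate 4 fell within the CA range among the exposed A549 libraries, and the log2 fold change was 0.37 after SP (adjusted p = 0.0567), 0.37 after PIN (adjusted p = 0.02) and 0.28 after NAP (adjusted p = 0.0521). MSMO1 stood at 101, 98.7, 90.4 and 96.5 CPM in CA, 108, 105 and 107 CPM after SP, 132, 117, 115 and 65.6 CPM after PIN and 105, 115, 114 and 101 CPM after NAP. PIN replicate 4 was the lowest of the 15 libraries, while the other PIN libraries all lay above CA. With all libraries no MSMO1 test passed in A549 cells (log2 fold changes 0.14 to 0.17, adjusted p = 0.361 to 0.614). Without PIN replicate 4 the PIN value was 0.33 (SE 0.08, edgeR adjusted p = 0.00557), under the fold change minimum. TM7SF2 ranged over 41.8 to 50 CPM in CA, 41.5 to 55.9 CPM after SP, 36.1 to 58.4 CPM after PIN and 47.8 to 56.9 CPM after NAP, so its groups overlapped throughout. LSS, which closes lanosterol's rings, and CYP51A1, which takes a methyl group off lanosterol, passed the adjusted p alone, LSS after SP (log2 fold change 0.46, adjusted p = 0.0469) and CYP51A1 after NAP (0.40, adjusted p = 0.0395).

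The 18 mevalonate and sterol enzymes together had log2 fold changes above 0 in 17 after SP, 14 after PIN and 18 after NAP. These counts were the same under RLE scaling and under library totals, and their medians were 0.26, 0.16 and 0.26. One library set the PIN median apart from the other 2. A549 PIN replicate 4, the PIN library whose experiment also held a CA coculture, was the lowest of the 4 PIN libraries in 17 of the 18 enzymes, where it was the lowest in 24.1% of all genes tested. Its median over the 18 enzymes, as log2 of its level over the CA mean, was -0.24, against 0.26, 0.27 and 0.28 in the other PIN libraries. Among the members given in every library, the same library was the highest PIN library for SREBF1, ABCG1, ABCA1, MYLIP and FASN. Without it 16 of the 18 enzymes were above 0 after PIN, with a median of 0.29. Against the CA library of its own experiment, 4 of the 18 enzymes were above 0 in PIN replicate 4, with a median of -0.24, and MSMO1 differed by -0.59 and FDFT1, squalene synthase, by -0.45 on the log2 scale.

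The SP group in A549 cells was also split. SP replicate 1 was the lowest of the 3 SP libraries in 17 of the 18 enzymes, where it was lowest in 30.3% of all genes, and its median over the CA mean was 0.06, against 0.30 and 0.34 in the others. The NAP libraries were even, with medians of 0.24, 0.32, 0.24 and 0.23. The CA libraries had medians of 0.08, -0.01, -0.13 and 0.04.

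**Figure D3:**
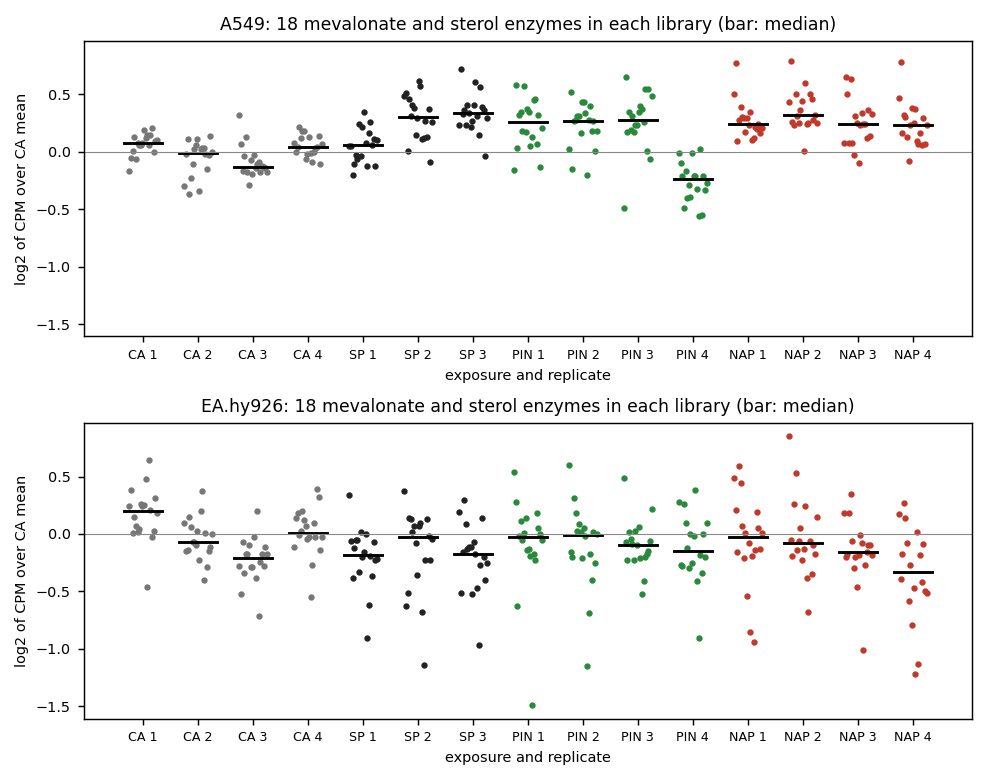
Log2 of the level of each of the 18 mevalonate and sterol enzymes over its mean in the CA libraries (points) in each library, with the library median (bar), for A549 and EA.hy926 cells. The A549 PIN replicate 4 median is -0.24 while the 4 NAP medians lie between 0.23 and 0.32, and in EA.hy926 cells the medians of all exposed libraries lie below 0.

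Of the LXR genes and the genes of sterol transport, ABCG1 rose in A549 cells. ABCG1 (chr21:42199689-42297244, plus strand), which exports sterols from the cell, was low, with 22 to 43 counts per CA library. Its CA levels were 2, 3.44, 4.57 and 1.77 CPM, and its SP levels 7.88, 5.79 and 6.18 CPM. After PIN it stood at 9.61, 4.12, 10.9 and 19.2 CPM and after NAP at 7.84, 7.12, 8.44 and 7.46 CPM. The SP and NAP libraries were all above CA, and PIN replicate 2 lay inside the CA range. The log2 fold change was 1.92 after PIN (SE 0.39, 3.79-fold, edgeR adjusted p = 0.00241) and 1.41 after NAP (SE 0.40, 2.65-fold, adjusted p = 0.0142). After SP it was 2.29-fold (SE 0.44 on the log2 scale, adjusted p = 0.106). Without PIN replicate 4 the PIN value was 1.47 (adjusted p = 0.00276) and the SP value passed, with an adjusted p of 0.0268.

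The related exporter ABCA1 was not called against CA with any aerosol, and it was low, with 21 to 29 counts per CA library. It stood at 1.91, 2.49, 2.45 and 1.94 CPM in CA, 3.11, 3.78 and 2.75 CPM after SP, 2.47, 2.55, 1.66 and 8.99 CPM after PIN and 1.55, 1.47, 2.24 and 2.08 CPM after NAP in A549 cells. PIN replicate 4 alone was far above the rest. The SP libraries all lay above CA, with a log2 fold change of 0.54 (SE 0.47, edgeR adjusted p = 0.517). The log2 fold change after PIN was 0.89 (adjusted p = 0.121), and without that library 0.03 (SE 0.26, adjusted p = 0.95). The receptor genes themselves, NR1H2 (LXRβ) and NR1H3 (LXRα), were not called, with log2 fold changes from -0.02 to 0.30 in A549 cells.

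MYLIP (chr6:16129086-16148248, plus strand) encodes a ubiquitin ligase that marks lipoprotein receptors for breakdown, and in A549 cells it was at 18.3, 24.1, 29.4 and 15.8 CPM in CA and at 12.9, 12.7 and 11.9 CPM after SP. It was at 16.2, 15.3, 14.5 and 24.3 CPM after PIN and at 19.6, 20.4, 34.8 and 24.4 CPM after NAP. The SP libraries were below every other A549 library. Against CA the log2 fold change after SP was -0.80 (SE 0.25, edgeR adjusted p = 0.0501), just outside the threshold, and it passed without PIN replicate 4 (adjusted p = 0.0253), a library that enters the shared estimate of the spread. The value was -0.30 after PIN and 0.18 after NAP, neither called. STARD4 ranged from 21.4 to 29.8 CPM over all A549 libraries with overlap between all groups, and its log2 fold changes were 0, -0.15 and 0.03.

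Of the 4 genes of fatty acid synthesis, FASN rose with every aerosol in A549 cells. FASN (chr17:82078338-82098294, minus strand) stood at 301, 225, 432 and 378 CPM in CA and at 485, 600 and 521 CPM after SP. It stood at 568, 448, 552 and 609 CPM after PIN and at 603, 523, 563 and 697 CPM after NAP. All 11 exposed libraries lay above all 4 CA libraries. FASN rose on the log2 scale by 0.68 after SP (SE 0.17, 1.6-fold, edgeR adjusted p = 0.0209), 0.70 after PIN (SE 0.16, 1.63-fold, adjusted p = 0.00488) and 0.84 after NAP (SE 0.16, 1.79-fold, adjusted p = 0.0011). The SP call was lost when SP replicate 2, SP replicate 3 or CA replicate 1 was left out.

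The other 3 genes of the group, ACLY (which makes cytosolic acetyl-CoA from citrate), ACACA (acetyl-CoA carboxylase) and SCD, were not called in A549 cells. ACLY and ACACA had log2 fold changes between 0.15 and 0.38, and ACLY passed the adjusted p alone after SP (0.38, adjusted p = 0.0389). SCD had values of 0.10, 0.06 and -0.16 after SP, PIN and NAP, none of which passed.

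Between aerosols, 3 tests in A549 cells called a member. INSIG1 was higher after NAP than after SP (log2 fold change 0.59, SE 0.10, edgeR adjusted p = 0.00168), and so was MYLIP (0.98, SE 0.25, adjusted p = 0.0192). HMGCS1 was higher after NAP than after PIN (0.52, SE 0.14, adjusted p = 0.0194), with all 4 NAP libraries above all 4 PIN libraries. These are 2 of 32 members higher after NAP than after SP, where 2.84% of all genes were called higher, 4.29% lower and 7.13% in either direction, and 1 of 32 after NAP against PIN, where these shares were 3.45%, 4.03% and 7.48%. Between PIN and SP 0 members were called by edgeR, where 0.0679% of all genes were, and 2 members had an unadjusted p under 0.05. The MYLIP call was lost without SP replicate 1 or SP replicate 2, and the HMGCS1 call without PIN replicate 3, NAP replicate 1 or NAP replicate 4, and with scaling by library totals.

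In EA.hy926 cells, which did not face the aerosol, members moved in both directions. MSMO1 was called lower after SP and NAP and TM7SF2 lower after PIN, while FASN and MYLIP were called higher after PIN and NAP and SREBF1 higher after PIN. These calls are 1 of 31 members after SP, 4 after PIN and 3 after NAP, against 9.83%, 11.2% and 14.8% of all genes called in either direction. By direction, 1, 1 and 1 members were lower against 5.12%, 6.14% and 8.57% of all genes, and 0, 3 and 2 were higher against 4.72%, 5.04% and 6.26%. The other 26 members tested were called with no aerosol. With the adjusted p alone 3, 9 and 8 members passed, where 18.6%, 23.7% and 29.7% of all genes did, and 11, 12 and 14 members had an unadjusted p under 0.05.

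FASN in EA.hy926 cells stood at 232, 360, 381 and 185 CPM in CA, 371, 478 and 405 CPM after SP, 370, 429, 465 and 500 CPM after PIN and 437, 472, 496 and 522 CPM after NAP. The NAP libraries were all above CA, and the lowest SP and PIN libraries lay just below the highest CA library. In this line the log2 fold change was 0.61 after PIN (SE 0.19, edgeR adjusted p = 0.03), 0.74 after NAP (SE 0.19, adjusted p = 0.00838) and 0.53 after SP (SE 0.20, adjusted p = 0.0818). The PIN call was lost when CA replicate 1 or 4 or PIN replicate 2, 3 or 4 was left out, and without a filter on low counts.

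SREBF1 in EA.hy926 cells was at 50.2, 51.4, 39.2 and 34.4 CPM in CA, 61.9, 47.6 and 56.1 CPM after SP, 77.1, 53.2, 56.6 and 73.6 CPM after PIN and 51.9, 55.1, 53.9 and 66.1 CPM after NAP. The PIN and NAP libraries were all above CA, the lowest NAP library only by a small margin. SREBF1 rose by 0.57 on the log2 scale after PIN (SE 0.14, edgeR adjusted p = 0.00654), a call lost without PIN replicate 1 or CA replicate 4. It was 0.33 after SP (adjusted p = 0.141) and 0.37 after NAP (adjusted p = 0.0558). SREBF2 and SCAP had values between -0.07 and 0.09 in this line, and neither passed.

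INSIG1 had no call in EA.hy926 cells. It stood at 45.2, 37.5, 25.4 and 34.3 CPM in CA, 32.6, 24.4 and 23.7 CPM after SP, 43.5, 38.2, 42.3 and 39.8 CPM after PIN and 36.7, 46.6, 35.4 and 25 CPM after NAP. All exposed groups overlapped CA, and the log2 fold changes were -0.41 (adjusted p = 0.154), 0.20 (adjusted p = 0.459) and 0.01 (adjusted p = 0.966) after SP, PIN and NAP.

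MYLIP rose in EA.hy926 cells, from 11.4, 12.2, 16 and 9.59 CPM in CA to 16.9, 18.9, 22.8 and 19.5 CPM after PIN and 19.8, 23.2, 18 and 19.5 CPM after NAP. After SP it stood at 14.8, 15.7 and 14.9 CPM. The PIN and NAP libraries were all above CA, and the SP libraries lay inside the CA range. Its rise on the log2 scale was 0.67 after PIN (SE 0.14, 1.59-fold, edgeR adjusted p = 0.00143), 0.71 after NAP (SE 0.14, 1.64-fold, adjusted p = 0.000474), and the SP value was 0.31 (adjusted p = 0.163). STARD4 was at 62.3, 43.8, 48.3 and 47.2 CPM in CA, 61.6, 55.8 and 49.7 CPM after SP, 79.8, 66.4, 79.2 and 56.5 CPM after PIN and 59.9, 75.3, 62.8 and 50.2 CPM after NAP. STARD4 overlapped CA in every aerosol group, in PIN by PIN replicate 4 alone, and its PIN value of 0.48 (adjusted p = 0.0145) was under the fold change minimum. Part of STARD4 overlaps an antisense gene.

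No ABCG1 count was found in EA.hy926 cells. A floor of 3 counts per library corresponds to 0.181 to 0.3 CPM there, so a level under that floor could not be detected. ABCA1 had log2 fold changes of -0.34, 0 and -0.64 after SP, PIN and NAP in this line, none called, and NR1H2 and NR1H3 were not called either, with values from -0.48 to 0.15.

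Of the 11 squalene and sterol steps 1 was called with each aerosol in EA.hy926 cells. The largest uncalled log2 fold changes in size were -0.67 for TM7SF2 after SP, -0.53 for MSMO1 after PIN and -0.49 for SQLE after NAP. After SP and after NAP all 11 squalene and sterol steps had log2 fold changes below 0, and after PIN 8 of 11 did, with medians of -0.16, -0.16 and -0.13 in that order. Without CA replicate 1, the CA library with the highest level in 12 of the 18 enzymes, 8 of 11 were below 0 after SP, 11 after NAP and 7 after PIN, with medians of -0.10, -0.12 and -0.01. Without CA replicate 2, 10 were below 0 after SP and 10 after NAP, and without CA replicate 4 these were 9 and 10. Without CA replicate 3, under RLE scaling and under library totals, all 11 stayed below 0 after SP and NAP. The CA libraries themselves ranged from a median of 0.20 in replicate 1 to -0.21 in replicate 3, over the same 18 enzymes and scale as above, which is wider than the median changes.

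MSMO1 (chr4:165327667-165343164, plus strand) was the member of this group called after SP and after NAP. It stood at 60.9, 29.5, 23.9 and 41.7 CPM in the CA libraries of EA.hy926 cells and at 25.4, 17.8 and 20 CPM after SP. After PIN it stood at 34.7, 24.2, 29.4 and 20.7 CPM and after NAP at 20.3, 24.4, 19.4 and 17.8 CPM. The CA libraries spread widely, and the highest SP and NAP libraries each lay just above the lowest CA library. The log2 fold change was -0.90 after SP (SE 0.27, 0.536-fold, edgeR adjusted p = 0.0311) and -0.94 after NAP (SE 0.25, 0.522-fold, adjusted p = 0.0102), and -0.53 after PIN (adjusted p = 0.141). The NAP call held without any 1 of the CA or NAP libraries. The SP call was lost without CA replicate 1 or 4 or SP replicate 2 or 3.

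TM7SF2 (chr11:65111845-65116384, plus strand) was near the filter in EA.hy926 cells, at 14 to 50 counts per library. It stood at 2.69, 4.78, 4.23 and 3.05 CPM in CA, 1.97, 2.31 and 2.65 CPM after SP, 1.31, 1.66, 2.58 and 2.77 CPM after PIN and 3.23, 2.83, 3.48 and 3.74 CPM after NAP. The SP libraries were all below CA by a small margin at the top, PIN overlapped CA in 1 library, and NAP lay within the CA range. The log2 fold change was -0.80 after PIN (SE 0.24, edgeR adjusted p = 0.0203), lost without PIN replicate 1 or 2 or CA replicate 2 or 3, and -0.67 after SP (adjusted p = 0.0701). Exons of TM7SF2 overlap VPS51 on the same strand.

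SQLE in EA.hy926 cells was at 78.9, 68.2, 54.6 and 65 CPM in CA, 58.1, 52 and 46.6 CPM after SP, 60.4, 57.5, 62 and 56.2 CPM after PIN and 46, 57, 48.3 and 38.5 CPM after NAP. The NAP value of -0.49 (SE 0.11, adjusted p = 0.00291) was just under the fold change minimum, with 1 NAP library inside the CA range. NSDHL was at 79.5, 69.2, 58.1 and 67.4 CPM in CA and between 56.7 and 65.6 CPM in all exposed libraries, with log2 fold changes of -0.23, -0.20 and -0.16 that did not pass. All exposed NSDHL libraries lay below the other 3 CA libraries.

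**Figure D4:**
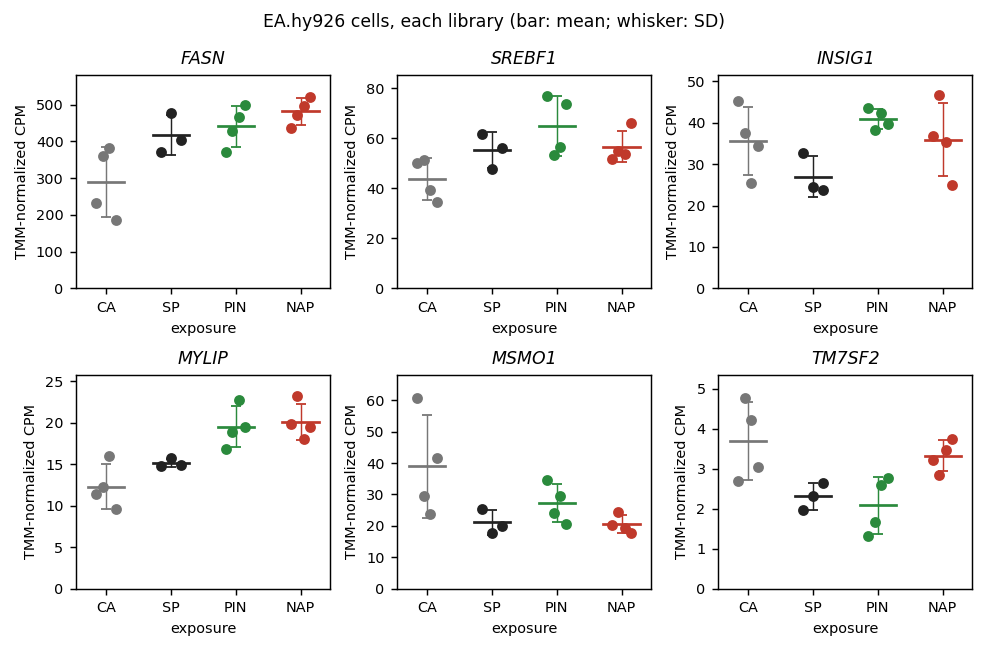
TMM-scaled CPM of FASN, SREBF1, INSIG1, MYLIP, MSMO1 and TM7SF2 in each EA.hy926 library (points) by exposure, with the group mean (bar) and SD (whisker), each axis from 0. The 4 NAP points of MSMO1 (17.8 to 24.4 CPM) lie at the bottom of a CA group that runs from 23.9 to 60.9 CPM, and MYLIP after PIN and NAP lies above CA.

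The mevalonate steps were split in EA.hy926 cells. HMGCS1 was at 47.2, 42.9, 33 and 37 CPM in CA, 50.5, 51.9 and 45.7 CPM after SP, 58.2, 60.7, 56.4 and 48.7 CPM after PIN and 56.2, 72, 45.3 and 45 CPM after NAP. The PIN libraries were all above CA, with a log2 fold change of 0.48 (SE 0.14, adjusted p = 0.0154), and the NAP value was 0.45 (adjusted p = 0.018), both under the fold change minimum. IDI1 was 0.37 higher after NAP on the log2 scale (adjusted p = 0.00348), and PMVK, phosphomevalonate kinase, had values of -0.35 after SP (adjusted p = 0.0436) and -0.33 after PIN (adjusted p = 0.0372). MVK stood at 18, 12.5, 9.69 and 15.4 CPM in CA, 13.3, 9 and 9.73 CPM after SP, 16.8, 12.4, 13.3 and 11.5 CPM after PIN and 16, 13.4, 12.1 and 10.6 CPM after NAP, with full overlap between PIN, NAP and CA. In the fatty acid group ACLY had log2 fold changes of 0.35, 0.32 and 0.31 after SP, PIN and NAP, with adjusted p-values of 0.00918, 0.00819 and 0.00748, and SCD was -0.37 after NAP (adjusted p = 0.0185).

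Between aerosols 0 members were called by edgeR in EA.hy926 cells, where 0%, 0.794% and 0.598% of all genes were called for PIN against SP, NAP against SP (0.364% lower) and NAP against PIN. The members with an unadjusted p under 0.05 were 4, 4 and 5 in the same order.

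Whether a response differed between the lines was tested as the interaction of exposure and line over the 9900 genes that passed the filter in both lines. After SP 3 of 31 members were called, after PIN 5 and after NAP 4, where 4.44%, 11.9% and 13.4% of all genes were called in either direction. After NAP all 4 were lower in EA.hy926 than in A549 cells, where 5.05% of all genes were, and none was higher, where 8.34% were. The 4 were SQLE with a difference of -0.84 (SE 0.15, edgeR adjusted p = 0.000149), MSMO1 with -1.12 (SE 0.31, adjusted p = 0.0121), MVK with -0.86 (SE 0.25, adjusted p = 0.0149) and INSIG1 with -0.79 (SE 0.20, adjusted p = 0.0059). SQLE, MSMO1 and INSIG1 kept this call under all 13 alternatives run, and MVK under 10 of them. SREBF2 had a difference of -0.45 (adjusted p = 0.0075), under the fold change minimum.

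After SP the response was lower in EA.hy926 cells for SQLE (difference -0.61, SE 0.16, edgeR adjusted p = 0.0216) and NSDHL (-0.59, SE 0.16, adjusted p = 0.0225). It was higher in EA.hy926 cells for MYLIP (1.11, SE 0.29, adjusted p = 0.0225), which was at its lowest after SP in A549 cells. The background was 1.38% lower and 3.06% higher after SP, and 4.43% lower and 7.45% higher after PIN. All 3 SP calls were lost when the cocultures of SP replicate 3 were left out. After PIN NSDHL (-0.56, SE 0.15, adjusted p = 0.00748) and TM7SF2 (-0.81, SE 0.28, adjusted p = 0.0415) were lower in EA.hy926 cells, and MYLIP (0.97, SE 0.26, adjusted p = 0.0105), STARD4 (0.63, SE 0.18, adjusted p = 0.0132) and HMGCS1 (0.63, SE 0.21, adjusted p = 0.0411) were higher there. HMGCS1 lost its call with the coculture as a block and TM7SF2 with limma-voom, and each lost it in 7 of 13 alternatives. All 5 PIN calls were lost when the cocultures of PIN replicate 3 were left out.

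**Figure D5:**
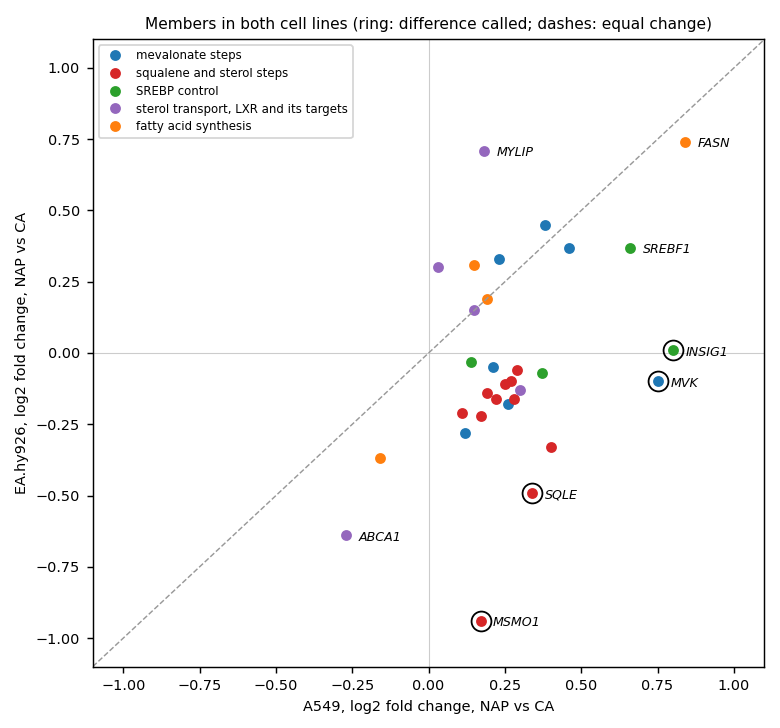
Log2 fold change of each member against clean air after NAP in A549 cells (horizontal axis) and in EA.hy926 cells (vertical axis), coloured by role, with equal change on the dashed line and a ring where the difference between the lines was called. The squalene and sterol steps all lie right of 0 and below 0, with MSMO1 at 0.17 and -0.94, while FASN (0.84 and 0.74) lies near the line.

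Across the 11 squalene and sterol steps the fitted difference was below 0 for every gene after SP and after NAP, and no gene was above 0 after PIN, with medians of -0.45, -0.39 and -0.26 in that order. These medians share the CA libraries. FASN did not show a called difference, at -0.14 (SE 0.28), -0.09 (SE 0.26) and -0.11 (SE 0.26) after SP, PIN and NAP with adjusted p-values of 0.855, 0.869 and 0.822, and SREBF1 did not either (0.04, -0.04 and -0.30, adjusted p = 0.961, 0.927 and 0.35). These tests do not show that the lines responded alike.

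Within an experiment that held both a CA and an aerosol coculture, the called members kept their sign. This could be looked at in experiment 42 for NAP, 38 for PIN and 53 for SP, with 1 library of each kind and so with no test. These libraries were also in the fit that called the members, so agreement in sign was favoured in advance and is no independent support. In A549 cells 5 of 5 members called after NAP, 4 of 4 after PIN and 1 of 1 after SP had the sign of the full comparison, and in EA.hy926 cells 3 of 3, 4 of 4 and 1 of 1 did. The enzymes did not all follow. In A549 cells 18 of the 18 mevalonate and sterol enzymes were above 0 in the NAP pair and 17 in the SP pair, but 4 in the PIN pair, against 14 in the fit. In EA.hy926 cells 5 of the 11 sterol steps were above 0 in the NAP pair, 5 in the PIN pair and 2 in the SP pair, against 0, 3 and 0 in the fit.

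The other genes of these pathways, in 4 lists, are read against the shares of all genes called higher or lower given above, which after NAP were 6.92% and 11.3% in A549 cells and 6.26% and 8.57% in EA.hy926 cells. Of 15 other sterol genes 0 were called in A549 cells by edgeR with any aerosol, with 1, 4 and 6 at an unadjusted p under 0.05 after SP, PIN and NAP. In EA.hy926 cells NPC1, which moves cholesterol out of lysosomes, was higher after SP (log2 fold change 0.52, edgeR adjusted p = 0.0023), and INSIG2, the relative of INSIG1, was lower after NAP (-0.52, adjusted p = 0.0039). Of 21 other genes of fatty acid synthesis 2 were called in A549 cells after NAP, MLXIPL, the glucose-responsive factor ChREBP (0.80, adjusted p = 0.0102), and ACSS2, which makes acetyl-CoA from acetate (0.55, adjusted p = 0.00171). In EA.hy926 cells 2 of the 19 tested were lower after SP and after NAP, GPAM, which starts glycerolipid synthesis (-0.74 and -0.51), and MID1IP1, which activates acetyl-CoA carboxylase (-0.62 and -0.98).

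Of the 13 tested genes of fatty acid oxidation and the PPARs, 3 were higher in A549 cells after NAP. They were CPT1A, the carnitine transferase at the mitochondrial entry (log2 fold change 0.88, edgeR adjusted p = 0.0303), PDK4, which turns off pyruvate oxidation (0.75, adjusted p = 0.00812), and the receptor PPARA (0.55, adjusted p = 0.0392). Of the 9 tested genes of LXR, RXR and oxysterol handling, TTC39B (1.12, adjusted p = 0.00132) and the oxysterol-binding protein gene OSBPL7 (0.69, adjusted p = 0.0389) were higher after NAP in A549 cells. The median log2 fold changes of these 4 lists after NAP in A549 cells were 0.16, 0.05, 0.17 and -0.03, beside 0 over all genes.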

How the data were processed

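Poly-A RNA libraries were sequenced from A549 and EA.hy926 cells of the same cocultures, 15 per line, each library from an experiment named in its label. The authors trimmed reads with cutadapt, aligned them with STAR 2.7.3a to GRCh38, removed duplicates by molecular identifiers and counted uniquely mapped reads per gene with HTSeq. The submitters' processing notes name GRCm38, a mouse build, but the genes carry human identifiers. The deposited values used here are raw counts per gene, 1 table per line. The authors' normalized tables were not used, and the study's sequencing batch is not given in the sources used here.

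Genes with 30 or more counts in 3 or more libraries of a line were kept, and counts were scaled by TMM and tested with edgeR 4.0.16 (glmQLFit and glmQLFTest, robust) in R 4.3.3, with all 15 libraries of a line in 1 fit on exposure and all 30 libraries in 1 fit for the line difference. P-values were adjusted by Benjamini-Hochberg over all genes tested, and a gene was called where the adjusted p was 0.05 or less and the absolute log2 fold change 0.5 or more. Per-library levels are CPM of the TMM-scaled library size, and the clean-air levels compared between lines are CPM of library totals. With 3 or 4 libraries per group the SE of the log2 fold change was mostly 0.08 to 0.2 and larger for low genes. The fit was tested on simulated data.

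Alternatives were limma-voom (limma 3.58.1), DESeq2 1.42.0, RLE scaling, library totals, no filter on low counts, a filter of 30 CPM in 3 libraries, the replicate number as a block, the experiment as a random block and leaving out each replicate. Same-numbered libraries of different exposures come from different experiments, so the numbers do not pair them by design. Their deviations correlated above 0.1 in every pair for A549 PIN against SP alone (0.27 to 0.41, 3 pairs), where 0 members were called with and without the block. Libraries of the 2 lines share a coculture (correlations -0.2 to 0.39 over 15 pairs). No pair of replicates agreed within sampling noise.

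The members and the lists of other genes were chosen with earlier results of these data known. Values in every library are given for the 6 members of a line with the largest called change against CA. They are also given for each member called in a line difference or between aerosols. This makes 12 members in A549 and 11 in EA.hy926 cells. Of these, TM7SF2 and STARD4 in A549 cells and the exposed NSDHL libraries in EA.hy926 cells are given as ranges. ABCA1, and the uncalled members named with a fold change alone, were added after their values were seen. From each other list up to 4 called genes are named, from the line and aerosol with most calls, from each of them where these tied. Some called genes of these lists are not reported here. Gene positions are from GENCODE v44 on GRCh38. Exons of 12 of the 32 members overlap another gene of the tables, and HSD17B7 and FDPS have near-identical copies elsewhere in the genome, so their counts are uncertain. The figures were drawn with matplotlib 3.10.9.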

Additional observations from a re-analysis of the deposited data

Results flagged for a closer look

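Of 189 groups of 4 libraries examined over all members tested, 11 held a library far from the other 3 by Dixon's criterion at the 95% level, and chance passes about 1 group in 20. Of these, 5 were A549 PIN replicate 4, with ABCA1 above the other PIN libraries at 8.99 CPM and FDFT1 (187 CPM), INSIG1 (71.7 CPM), LSS (56 CPM) and MVD (49.2 CPM) below them. MVK in A549 NAP replicate 3 was below the other NAP libraries at 61.9 CPM. In EA.hy926 cells ACACA in PIN replicate 3 (44.5 CPM), ACLY in NAP replicate 2 (255 CPM), EBP in NAP replicate 1 (24 CPM), IDI1 in CA replicate 3 (50.1 CPM) and SC5D in CA replicate 1 (48 CPM) stood apart from their groups.

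The response to an aerosol differed between the lines, by the edgeR interaction test, in 12 cases. The log2 differences, EA.hy926 minus A549, were after SP -0.61 for SQLE, -0.59 for NSDHL and 1.11 for MYLIP. After PIN they were 0.63 for HMGCS1 (not called with the coculture as a block), -0.81 for TM7SF2 (not called with limma-voom), -0.56 for NSDHL, 0.63 for STARD4 and 0.97 for MYLIP. After NAP they were -0.86 for MVK, -0.84 for SQLE, -1.12 for MSMO1 and -0.79 for INSIG1.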

How the results depend on the processing

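No called member reversed its direction under any alternative run. In A549 cells the count of members called after SP moved from 1 to 2 with DESeq2 and with RLE scaling and to 3 with library totals. NAP against SP moved from 2 to 1 with library totals, which shift the median of all genes there by -0.15, and to 1 with the CPM filter, and NAP against PIN from 1 to 2 with DESeq2. In EA.hy926 cells the count after SP moved from 1 to 2 with limma-voom, DESeq2 and the experiment as a random block, and to 0 with no filter on low counts, and the count after PIN moved from 4 to 2 with the CPM filter, which removed MYLIP and TM7SF2 from the test. The same filter removed the ABCG1 call after PIN (4 to 3) and NAP (5 to 4) in A549 cells and put SQLE in the place of MYLIP after NAP in EA.hy926 cells. With library totals NAP against PIN in A549 cells lost HMGCS1 and gained ABCA1. The line difference after SP moved from 3 to 5 with DESeq2. The cause of these moves was not tested unless stated.

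Each replicate of the exposures in a comparison was left out in turn. In A549 cells this gave 0 to 3 members after SP, 4 to 5 after PIN and 5 to 7 after NAP. Between aerosols it gave 1 to 2 for NAP against SP, 0 to 2 for NAP against PIN and 0 to 0 for PIN against SP. In EA.hy926 cells it gave 0 to 3, 2 to 5 and 3 to 5 against CA, and 0 to 0 between aerosols. For the line difference it gave 0 to 6 after SP, 0 to 6 after PIN and 3 to 5 after NAP. Where it left out a coculture, both lines' libraries were dropped.

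The replicate number as a block changed no count of members called within a line. Those against CA stayed at 1, 4 and 5 in A549 and 1, 4 and 3 in EA.hy926 cells. Same-numbered libraries come from different experiments, so this block cannot show what part the experiment had. With the coculture as the block, the line difference after SP gained MSMO1 and the one after PIN lost HMGCS1. Depth limits the low genes most, such as ABCG1 and ABCA1 in A549 and ABCA1, TM7SF2, CYP51A1, NR1H3 and HSD17B7 in EA.hy926 cells, which had mean levels under 10 CPM in clean air. The counts of enzymes above or below 0 under other scalings and without single libraries were chosen after seeing the data.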
